A study of Mus musculus with 15 samples.

Results

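The change of gene expression from oligodendrocyte precursor cells (OPC) to oligodendrocytes (OL) was measured in mouse cells from which Srf had been deleted. The comparison took the 3 SRF-KO OPC libraries and the 4 SRF-KO OL libraries, 7 of the 15 libraries of the study, and asked which stage genes still rose or fell without SRF. All cells were primary cultures from the brains of mice with 2 floxed Srf alleles, purified as precursors by immunopanning, a selection on antibody-coated dishes. SRF-KO OPC received an adeno-associated virus carrying eGFP-cre under the CMV promoter on day 3 of culture, were plated at 30000 cells per well in proliferation medium and were frozen 48 hours after infection. SRF-KO OL were plated at 35000 cells per well, received a lentivirus carrying CRE-IRES-GFP on day 6 and were frozen on day 3 of differentiation. Their treatment label also carries the word control, while their titles name them SRF-KO, and the group was taken from the titles. The series' design text names another cell type and another Cre than the sample labels, which were followed here. The control libraries came from the same floxed genotype, with 4 control OPC given the virus with a deleted cre and 4 control OL given a GFP lentivirus. The animals' age and sex are not given in the sources used here, and nothing states that the replicates came from separate animals, so that the p-values measure the spread between these libraries. Stage therefore differed together with the virus, the time since infection and the medium, and these cannot be told apart. In these bulk samples, fewer cells of a type and less RNA per cell also cannot be told apart.

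Precursors are proliferating glial cells that leave the cell cycle on withdrawal of mitogens, pass through a short-lived newly formed state and then switch on the myelin genes, whose products build the sheath around axons. SRF is a DNA-binding transcription factor that recognises the CArG box. With the actin-regulated cofactors MRTF-A and MRTF-B it drives genes of the actin cytoskeleton, and with ternary complex factors it drives immediate-early genes. In oligodendrocytes the actin cytoskeleton is assembled while processes extend and is taken apart while the sheath wraps.

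The libraries of the 2 stages were counted on different gene models. Among 12297 one-transcript genes with an intron, the mean length used for SRF-KO OPC equalled the spliced transcript for 73.3% of genes and the genomic span for 0%, while the length used for SRF-KO OL equalled the genomic span for 68.7% and the spliced length for 0%. Genes were therefore split into a longer class, with a mean OL length over 1.1 times the OPC length, and a like-length class. Totals were 9074812 to 15125229 expected counts in SRF-KO OPC and 4303739 to 11721394 in SRF-KO OL. Mitochondrially encoded genes took 5.07 to 5.73% of the counts in OPC and 9.08 to 14.2% in OL. The first principal component separated the stages and held 89.3% of the variance, and the second (5.11%) set SRF-KO OL replicate 4, at -71.7, apart from the other OL libraries, at 22.3 to 28.2. Defining markers fitted the labels in that SRF-KO OPC held Pdgfra and Cspg4 with little Mbp and no Mog, and SRF-KO OL held Mbp, Mag and Mog. The OL libraries also held the astrocyte marker Gfap, while the microglia markers Tmem119 and Aif1 and the endothelial marker Cldn5 were at or near 0, with values given below for the lists.

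Of 15102 genes tested, 5685 (37.6%) were higher in SRF-KO OL and 4370 (28.9%) were lower (edgeR quasi-likelihood test, Benjamini-Hochberg adjusted p under 0.05, the meaning of rose and fell from here on). Without replicate 4 of SRF-KO OL the counts were 6033 and 5016. In the longer class of 13259 genes, 4451 rose (33.6%) and 4125 fell (31.1%), with a median log2 fold change near 0 (0.0009). In the like-length class of 1843 genes, 1234 rose (67.0%) and 245 fell (13.3%), with a median of 3.23. Processed pseudogenes, the intronless copies of spliced messages, rose in 894 of 923 cases (median 6.00). The ribosomal protein genes themselves went the other way. All 76 that were tested fell, with a median of -2.71, and 66 of 71 of their processed pseudogenes rose, with a median of 4.51. Rpl9, for example, stood at 591, 568 and 586 normalised counts scaled to library size (CPM) in the 3 SRF-KO OPC libraries and at 4.26, 4.52, 5.02 and 4.4 in the 4 SRF-KO OL libraries. These groups were chosen after their values were seen. The median change in the longer class also moved with the number of splice junctions per kilobase of transcript, from 0.37 in genes with fewer than 1 to -0.38 in genes with more than 6. The part of the counting in any single gene's change was not tested, and for the longer class stage and counting cannot be told apart. Coding genes without introns had nearly equal models in both stages. Among 310 of them, 309 in the like-length class, 119 rose (38.4%) and 67 fell (21.6%), with a median of 0.21.

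**Figure D1:**
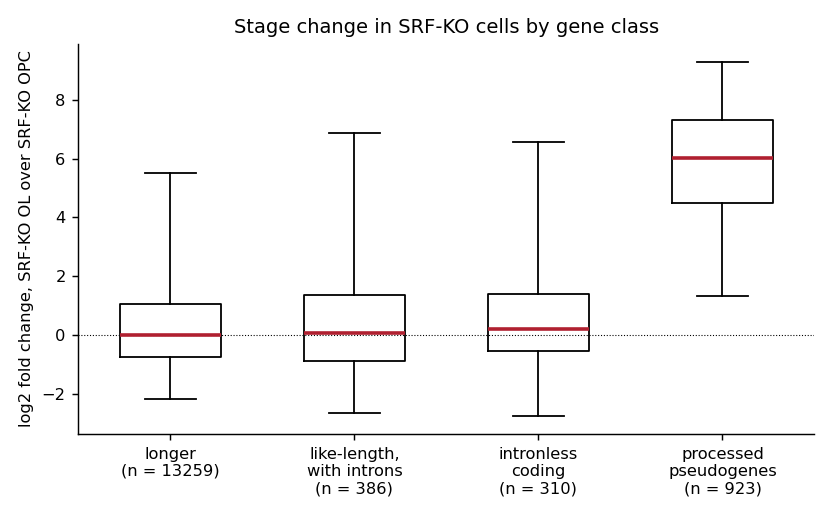
Log2 fold change (SRF-KO OL over SRF-KO OPC) of the genes tested, by gene class; boxes span the quartiles with the median as a line, and whiskers run from the 5th to the 95th percentile. The median was 6.00 in processed pseudogenes and 0.21 in coding genes without introns.

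Srf itself was nearly absent from the deleted precursors and was higher in the deleted oligodendrocytes. Its level was 0.207, 0.194 and 0.202 CPM in SRF-KO OPC and 3.49, 3.07, 2.28 and 4.82 CPM in SRF-KO OL (log2 fold change 4.00, SE 0.48, edgeR adjusted p = 2.8e-05). The groups did not overlap, and the 4 OL libraries held 103 Srf counts in all against 7 in the 3 OPC libraries. In the controls Srf had 7.25 ± 1.56 CPM (SD, n = 4) in OPC and 9.01 ± 1.006 CPM (SD, n = 4) in OL, on the scale of all 15 libraries, where SRF-KO OPC had 0.192 ± 0.0065 (SD, n = 3) and SRF-KO OL 3.24 ± 1.00 (SD, n = 4). The gene lies on chromosome 17, 46548329 to 46556175 (GRCm38, minus strand), and its model was 2.28 times as long in the OL counts. The deleted exons were not located here, and counts over introns and over exons that Cre leaves in place are included. Residual Srf counts were unequal between the stages compared.

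Coding genes without introns are the ones in which the counting differed least. In the 180 of them that overlap no other annotated gene, 66 rose (36.7%) and 33 fell (18.3%). The receptor gene Adra2a, encoding an alpha-2 adrenergic receptor, went from 0.207, 0 and 0 CPM in SRF-KO OPC to 37.6, 41.2, 36.3 and 23.5 in SRF-KO OL, a ratio of 639 (95% counting interval 176 to 5282) by counting error only. Dio3, the deiodinase that inactivates thyroid hormone, had no count in the OPC libraries and 11.2, 15.1, 11.9 and 21.6 CPM in OL, at least 174-fold higher against a floor of 3 counts over the OPC group. Gas1, a membrane protein linked to growth arrest and Hedgehog signalling, had 53, 22.7 and 52 CPM in OPC and 150.2, 162, 151 and 96.4 in OL (log2 fold change 1.72, SE 0.31, edgeR adjusted p = 0.00049). Fzd8, a Wnt receptor, went from 2.38, 0.646 and 2.93 to 16, 12.5, 11.4 and 7.55 CPM (log2 fold change 2.65, SE 0.45, edgeR adjusted p = 0.00036). In each of these 4 genes every OL library was above every OPC library. For Adra2a and Dio3 this was a condition of their choice. Here and below, such a lack of overlap describes genes mostly chosen by their change or after their values were seen. It is no further support.

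Falls in the same class included H1f0, a linker histone gene, at 341, 434 and 369 CPM in OPC and 183, 179, 208 and 189 in OL (log2 fold change -1.01, SE 0.16, edgeR adjusted p = 0.00022), and the imprinted gene Peg12, at 87.4, 93.3 and 95.3 and 23.2, 14.9, 5.7 and 8.8 CPM (log2 fold change -2.75, SE 0.35, edgeR adjusted p = 4.7e-05). Sowahc fell from 59.7, 70.5 and 69.9 CPM to 0.0969 in SRF-KO OL replicate 1 and 0 in the other 3 libraries. Histone genes without introns were mixed: of 33 tested, 18 fell and 10 rose, with a median of -1.06. Of all 310 coding genes without introns 21.6% fell and 38.4% rose. Hist1h2ap had 584, 688 and 563 CPM in OPC and 34, 26.9, 27.4 and 64.8 in OL (log2 fold change -4.00, SE 0.31, edgeR adjusted p = 1e-06), whereas the linker histone gene Hist1h1c had 59.9, 50.5 and 59 and 205, 179.6, 193 and 248 CPM (log2 fold change 1.87, SE 0.18, edgeR adjusted p = 5.4e-06). Histone genes have near-identical copies, so that reads can be divided among them, and the gene group was chosen after its values were seen.

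Other large changes of the like-length class were taken among called genes with non-overlapping groups and a mean log2 CPM no lower than 3, leaving out Gm-numbered, Rik, pseudogene (-ps) and clone names. Gemin4, of the complex that assembles spliceosomal particles, had 48.4, 56 and 48 CPM in OPC and no count in OL, at least 517-fold lower, and it overlaps 3 annotated genes. Pold1, the catalytic subunit of DNA polymerase delta, went from 109.5, 111 and 122 to 5.23, 5.51, 5.93 and 3.56 CPM (log2 fold change -4.48, SE 0.19, edgeR adjusted p = 3.1e-08), and Ncapd2, a condensin subunit, from 147, 178 and 173 to 15.5, 16.3, 16.7 and 13.6 CPM (log2 fold change -3.41, SE 0.17, edgeR adjusted p = 5.5e-08). Impdh2, the rate-limiting enzyme of guanine nucleotide synthesis, had 247, 245 and 248 CPM in OPC and 11.8, 13, 9.81 and 11.9 in OL (log2 fold change -4.39, SE 0.17, edgeR adjusted p = 2e-08). Cpne1 (-5.30) and Rpl35 (-5.14) completed the 8 largest falls within these limits. The largest rises within them were Myo1h, Elobl, Prss23os, Tpi-rs11, Cox6c2 and Aldoart1 besides Adra2a and Dio3. Myo1h had no count in OPC and 66.1, 75.6, 60.5 and 53.9 CPM in OL, at least 747-fold higher, and overlaps Kctd10. Aldoart1, an intronless relative of the glycolytic enzyme gene Aldoa, had 0.311, 0.0646 and 0 CPM in OPC and 27.3, 27.5, 29 and 40.7 in OL (log2 fold change 7.92, SE 0.46, edgeR adjusted p = 1.4e-07).

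Genes of the cell cycle were lower in SRF-KO OL throughout both lists examined, while 28.9% of all genes fell. All 31 DNA replication genes fell, with a median log2 fold change of -3.27 and a range from -4.39 to -1.71. All 32 mitosis genes fell as well, with a median of -3.40 and a range from -4.31 to -2.37. Mcm5, a subunit of the replicative helicase, had 268, 301 and 299 CPM in OPC and 21.9, 18.4, 21 and 16.3 in OL (log2 fold change -3.89, SE 0.17, edgeR adjusted p = 3.7e-08). Cdc45, which activates that helicase, went from 76.8, 91.5 and 91.5 to 4.84, 4.7, 5.93 and 4.61 CPM (log2 fold change -4.12, SE 0.18, edgeR adjusted p = 3e-08), and Uhrf1, which keeps DNA methylation through replication, from 216, 201 and 208 to 17.6, 17.5, 15.3 and 13.2 CPM (log2 fold change -3.70, SE 0.17, edgeR adjusted p = 4.3e-08). Every OL library stood below every OPC library for these 3 genes.

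Among the mitosis genes, Plk1, a mitotic kinase, had 149, 192 and 188 CPM in OPC and 9.3, 9.39, 10.3 and 9.01 in OL (log2 fold change -4.22, SE 0.17, edgeR adjusted p = 2.6e-08). Cdc20, which activates the anaphase-promoting complex, had 271, 380.2 and 269.8 and 12.6, 16, 15.1 and 18.4 CPM (log2 fold change -4.31, SE 0.21, edgeR adjusted p = 5.6e-08), and the spindle motor Kif11 had 202, 191 and 183 and 15.5, 16.4, 12.3 and 11.5 CPM (log2 fold change -3.76, SE 0.18, edgeR adjusted p = 5.5e-08). Both lists stayed at 31 of 31 and 32 of 32 lower without SRF-KO OL replicate 4. The scaling taken from like-length genes gave the same counts. It shifts the median of all genes by -1.52 on the log2 scale, however, so it cannot test these falls. Pcna, whose OL model is 1.07 times as long but which has introns, fell by 3.05 on the log2 scale. The part of the counting in that fall was not tested. In controls the medians were -3.51 for replication and -3.83 for mitosis, with 31 of 31 and 32 of 32 genes lower.

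Genes of the precursor state did not move as a block. Of 30 OPC surface, matrix and signalling genes, 11 fell and 13 rose, with a median of 0.18, near the 28.9% and 37.6% of all genes. Pdgfra, the receptor for the main precursor mitogen, had 449.9, 559 and 484 CPM in OPC and 85, 82.8, 73.7 and 60.6 in OL (log2 fold change -2.72, SE 0.18, edgeR adjusted p = 3.6e-07). Cspg4, the NG2 proteoglycan, had 96.2, 55 and 101.04 and 13.5, 10.6, 11 and 14 CPM (log2 fold change -2.78, SE 0.23, edgeR adjusted p = 2e-06). Ccnd1, the cyclin through which mitogens drive entry into the cycle, fell most in the list, from 2104, 1797 and 2109.9 to 210.2, 205, 193 and 131 CPM (log2 fold change -3.44, SE 0.20, edgeR adjusted p = 1.7e-07). Megf11 (-2.89), Cspg5 (-1.53) and Ptprz1 (-0.97) fell too. No OL library reached the lowest OPC library in Pdgfra, Cspg4 or Ccnd1.

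The members that rose are in part genes known from committed precursors. Gpr17, a receptor that peaks in committed precursors, had 16.4, 15.3 and 17.4 CPM in OPC and 344, 288, 277 and 251 in OL (log2 fold change 4.15, SE 0.20, edgeR adjusted p = 5.2e-08), and its OL model was only 1.28 times as long as its OPC model, although it lies within Lims2. Tnr, which encodes the matrix protein tenascin-R, had 15.8, 15.6 and 12.9 and 147, 148, 157 and 154 CPM (log2 fold change 3.36, SE 0.17, edgeR adjusted p = 7.1e-08). Bcan (1.29), Vcan (0.88), C1ql1 (3.60) and Matn4 (3.44) also rose. With the scaling taken from like-length genes, 6 members rose and 20 fell, so that the direction of the list as a whole depends on the scaling.

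Genes of newly formed oligodendrocytes rose in 22 of 27 members, and none fell, with a median log2 fold change of 2.26. Of all genes 37.6% rose and 28.9% fell. Among the 27 members, 2 had no count in OPC and so passed the filter on low counts through the OL libraries alone. Enpp6, a choline phosphodiesterase used to mark newly formed cells, had no count in the 3 OPC libraries and 299, 359, 315 and 165 CPM in OL, at least 3319-fold higher. Bmp4, a secreted ligand of the BMP pathway, was also at 0 in OPC and had 35.4, 28.2, 36.7 and 39 CPM in OL, at least 406-fold higher. Itpr2, a calcium channel of the endoplasmic reticulum, went from 15.6, 13.5 and 15.4 to 136, 129, 126 and 129 CPM (log2 fold change 3.13, SE 0.17, edgeR adjusted p = 8.4e-08). Nfasc, which encodes neurofascin of the axon-glia junction, had 33.9, 24.4 and 29.6 CPM in OPC and 281, 287, 273 and 265 in OL (log2 fold change 3.24, SE 0.19, edgeR adjusted p = 1.3e-07). Bcas1, a marker of cells that begin to myelinate, had 133, 157 and 153 and 1297, 1224, 1172 and 1039 CPM (log2 fold change 3.00, SE 0.18, edgeR adjusted p = 1.7e-07). For all 5 genes the lowest OL library exceeded the highest OPC library. Fyn, Fam107b, Mycl, Pik3r3 and Slc9a3r2 did not pass the test, at 0.25, 0.68, 0.40, 0.32 and -0.01.

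Myelin and mature oligodendrocyte genes rose in 33 of 35 members, with a median of 5.28, beside 37.6% of all genes. Of these 35 members, 4 had no count in OPC and so passed the filter on low counts through the OL libraries alone. Mbp, the myelin basic protein that compacts the sheath, had 15.2, 10.9 and 11.4 CPM in SRF-KO OPC and 5433, 7357, 6359.7 and 7369.8 in SRF-KO OL (log2 fold change 9.05, SE 0.28, edgeR adjusted p = 1.6e-08). Mog, on the outer surface of the sheath, had no count in OPC and 123, 122, 127 and 156 CPM in OL, at least 1537-fold higher. Mag, an adhesion molecule facing the axon, had 0.207, 0 and 0 CPM in OPC and 361, 466, 479 and 387 in OL, a ratio of 7355 (95% counting interval 2036 to 60740.4) by counting error only. OPC and OL libraries were far apart in each of these genes, while SRF-KO OL replicate 4 had the highest Mog of its group.

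Cnp, an enzyme of the cytoplasmic channels in myelin, was already high in precursors, with 404, 445 and 393 CPM in OPC and 2174, 2466, 2253 and 1682 in OL (log2 fold change 2.37, SE 0.19, edgeR adjusted p = 1.4e-06). The single member that fell was Anln, which encodes a cytokinesis protein and is also among the mitosis genes. Anln had 70.3, 66.3 and 73.8 CPM in OPC and 15.3, 16.2, 13.2 and 8.8 in OL (log2 fold change -2.37, SE 0.20, edgeR adjusted p = 2.2e-06). Gsn, which encodes the actin-severing protein gelsolin, did not pass the test (0.18). With the scaling taken from like-length genes 28 myelin genes rose and 4 fell, and newly formed genes split 15 and 7. Without SRF-KO OL replicate 4, 34 and 25 members rose. Markers of astrocytes rose in the same libraries: their 18 genes summed to 2537 to 2899 CPM in SRF-KO OPC and 15812 to 21690 CPM in SRF-KO OL. Their part in the myelin values was not tested.

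**Figure D2:**
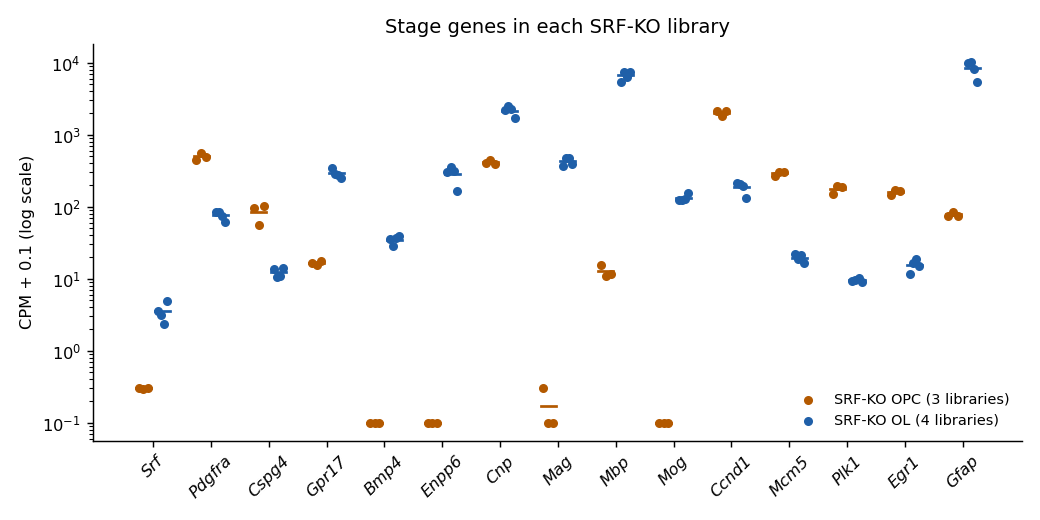
CPM plus 0.1 on a log axis for 15 genes in each SRF-KO library (3 OPC, 4 OL); points are libraries and short lines are group means. Pdgfra and Ccnd1 were lower in OL, Mbp and Mag were higher, and Mog, Enpp6 and Bmp4 were at 0 in OPC.

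Lineage transcription factors moved in both directions, 13 up and 10 down of 29, with a median of 0.05, which is near the 37.6% and 28.9% of all genes. The factor that switches on myelin genes, Myrf, had 0.933, 1.1 and 0.506 CPM in OPC and 31.4, 25.2, 17.6 and 25.2 in OL (log2 fold change 4.82, SE 0.32, edgeR adjusted p = 3.6e-07). Nkx6-2, active in mature cells, had 0.518, 0.646 and 1.11 and 43.7, 36.8, 36.1 and 45.5 CPM (log2 fold change 5.73, SE 0.27, edgeR adjusted p = 5.1e-08), and St18, a zinc finger factor, had 0.725, 0.129 and 0.1011 and 21.3, 20.8, 18.9 and 21.8 CPM (log2 fold change 6.09, SE 0.43, edgeR adjusted p = 5.1e-07). Sox10, required throughout the lineage, had 138, 88.1 and 137 CPM in OPC and 278, 239.8, 204 and 218 in OL (log2 fold change 0.96, SE 0.21, edgeR adjusted p = 0.0019). Tcf7l2, the effector of Wnt signalling that marks newly formed cells, had 68.4, 77.3 and 64.9 and 179, 187, 159 and 165 CPM (log2 fold change 1.30, SE 0.16, edgeR adjusted p = 3.5e-05). OL libraries were above OPC libraries without overlap for these 5 factors.

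Several lineage factors have no intron, so that their models were nearly the same in both stages. Olig1, which marks the lineage, had 3127, 2252 and 3032 CPM in OPC and 1682, 1538, 1365 and 1336 in OL (log2 fold change -0.92, SE 0.18, edgeR adjusted p = 0.00086). Pou3f1 fell from 40.1, 23.8 and 48.9 to 5.62, 2.98, 2.97 and 4.61 CPM (log2 fold change -3.19, SE 0.31, edgeR adjusted p = 5.2e-06), and Sox11, a factor of immature cells, from 554, 613 and 543 to 228, 205, 109 and 67.5 CPM (log2 fold change -1.90, SE 0.35, edgeR adjusted p = 0.00064). Sox2 rose from 73.8, 62.4 and 89.7 to 202, 174, 174 and 177 CPM (log2 fold change 1.27, SE 0.18, edgeR adjusted p = 8.8e-05) and Sox4 from 286, 137 and 339 to 605, 546, 494 and 444 CPM (log2 fold change 1.04, SE 0.28, edgeR adjusted p = 0.0069). Pou3f2 rose by 0.51, and Pou3f3 was lower by a log2 fold change of -0.63. Sox2, Sox4, Olig1 and both Pou3f1 and Pou3f3 overlap a noncoding or other annotated gene, and Sox11 and Pou3f2 do not. Over all lists 14 members have no intron, of which 7 rose and 6 fell, beside 38.4% and 21.6% of all coding genes without introns. The scaling from like-length genes gave 3 rises and 22 falls among the 29 factors.

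Inhibitors of differentiation of the Id and Hes/Hey families were mostly higher in SRF-KO OL, with 6 of 9 up and 2 down. Of all genes 37.6% rose and 28.9% fell. Id3, which sequesters bHLH factors, had 65.6, 94.4 and 61.7 CPM in OPC and 631, 596, 650.3 and 1099 in OL (log2 fold change 3.33, SE 0.29, edgeR adjusted p = 2.3e-06), with replicate 4 above the rest of its group. Id4 had 8.08, 7.18 and 13.5 and 188, 215, 179 and 68.8 CPM (log2 fold change 4.10, SE 0.42, edgeR adjusted p = 7.9e-06), and the Notch target Hey1 had 19.999, 23.1 and 18.3 and 157, 151, 167 and 109 CPM (log2 fold change 2.83, SE 0.21, edgeR adjusted p = 6.4e-07). Hes6 (-1.56) and Hes5 (-0.72) fell. With the like-length scaling the list split 5 and 4. Several of these genes are also expressed by astrocytes, whose markers rose in the same libraries, and their part was not tested.

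Genes of cholesterol synthesis, which supplies the main lipid of myelin, fell in 13 of 24 members and rose in 2, with a median of -0.67. Of all genes 28.9% fell and 37.6% rose. Fdps, the farnesyl diphosphate synthase, had 609, 666 and 594 CPM in OPC and 114, 97.7, 106 and 159 in OL (log2 fold change -2.39, SE 0.20, edgeR adjusted p = 1.7e-06). Acat2, a thiolase at the start of the pathway, went from 533, 680.3 and 535 to 258, 229.6, 229 and 201 CPM (log2 fold change -1.34, SE 0.17, edgeR adjusted p = 4.2e-05). Hsd17b7, a late enzyme of the pathway, rose from 56.6, 67.1 and 49.6 to 132, 143, 127 and 136 CPM (log2 fold change 1.22, SE 0.17, edgeR adjusted p = 7.3e-05), a direction that turned with the like-length scaling (-0.32, edgeR adjusted p = 0.22). Hmgcs1, the first committed step, did not pass the test. Its OL values of 2060.2, 2146, 1900.4 and 529 CPM show replicate 4 far under the other libraries, against 1337, 1407 and 1313 in OPC.

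Fatty acid and sphingolipid genes rose in 10 of 26 and fell in 4, with a median of 0.25, and the share that rose was close to the 37.6% of all genes (28.9% fell). The rises included enzymes of the myelin galactolipids. Ugt8a, which makes galactosylceramide, had 60.2, 55.1 and 54.7 CPM in OPC and 521, 704, 534 and 209 in OL (log2 fold change 3.12, SE 0.36, edgeR adjusted p = 2.2e-05), Gal3st1, which sulfates it, had 12.1, 8.15 and 11.3 and 96.6, 93.9, 91.7 and 104 CPM (log2 fold change 3.20, SE 0.20, edgeR adjusted p = 1.9e-07), and Fa2h, which hydroxylates its fatty acid, had 0.104, 0.97 and 0.303 and 38.8, 39.9, 34.9 and 31.9 CPM (log2 fold change 6.09, SE 0.40, edgeR adjusted p = 3.1e-07). Elovl7, an elongase of long-chain fatty acids, went from 7.25, 6.14 and 6.57 to 73.2, 87, 82.4 and 56.8 CPM (log2 fold change 3.49, SE 0.21, edgeR adjusted p = 1.8e-07). Every OL library was above every OPC library for these enzymes. Acly, which supplies cytosolic acetyl-CoA, fell from 523, 618 and 483 to 237, 219, 172 and 111 CPM (log2 fold change -1.55, SE 0.25, edgeR adjusted p = 0.00023). The like-length scaling gave 4 rises and 20 falls.

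Of 31 known SRF-MRTF targets tested, 15 rose and 7 fell, with a median of 0.45, beside 37.6% up and 28.9% down of all genes, and the control median was 0.67. Among these members, 1 had no count in OPC and so passed the filter on low counts through the OL libraries alone. Nothing particular to the list is read from these counts. The list holds Srf itself, one of its own targets. To show the element that SRF reads in these genes, CArG boxes (capitals) are printed for 8 members that changed. The boxes were found by the SRF consensus on either strand in the 250 bases before a listed start. For some genes, such as Filip1l, Fhl1 and Fhl2, that start lies inside the annotated gene span. The 40-base windows are from RefSeq, written on the gene's own strand, with GRCm38.p6 coordinates. Filip1l had 0, 2.13 and 1.011 CPM in OPC and 0, 114, 3.65 and 155 in OL (log2 fold change 5.86, SE 1.70, edgeR adjusted p = 0.01). Its groups overlapped, and its high values lay in OL replicates 2 and 4.
Actg1 (chr11:120348561-120348600, minus strand): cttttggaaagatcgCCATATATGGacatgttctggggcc
Cnn2 (chr10:79988529-79988568, plus strand): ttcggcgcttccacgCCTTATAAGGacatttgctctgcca
Myl9 (chr2:156775288-156775327, plus strand): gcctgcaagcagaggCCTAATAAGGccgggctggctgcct
Filip1l (chr16:57549165-57549204, plus strand): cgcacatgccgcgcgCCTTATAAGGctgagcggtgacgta
Fhl1 (chrX:56779566-56779605, plus strand): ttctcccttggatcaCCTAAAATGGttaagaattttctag
Fhl2, from one of its listed starts (chr1:43163968-43164007, minus strand): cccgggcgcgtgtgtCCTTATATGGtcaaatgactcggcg
Actc1 (chr2:114052898-114052937, minus strand): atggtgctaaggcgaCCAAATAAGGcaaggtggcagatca
Srf, upstream box (chr17:46556220-46556259, minus strand): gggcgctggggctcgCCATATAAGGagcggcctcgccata
Srf, downstream box (chr17:46556200-46556239, minus strand): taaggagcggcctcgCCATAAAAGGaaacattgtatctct
A CArG box was found for 12 of 28 list members with a promoter in the table (42.9%), against 439 of 27025 genes (1.62%). The list was drawn from known targets, so this share describes the choice. Of the 13 members with a promoter that rose, 7 held a box, as did 1 of the 6 that fell. A match is a description of letters and not a measured site.

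Contractile genes were among the largest rises of the list. Acta2, smooth muscle actin, had 0, 0.259 and 1.011 CPM in SRF-KO OPC and 37.4, 44.3, 52.3 and 73.8 in SRF-KO OL (log2 fold change 6.95, SE 0.54, edgeR adjusted p = 1.1e-06). Myl9, a regulatory myosin light chain, had 1.76, 2.39 and 1.011 and 34.7, 38.9, 44.3 and 72.7 CPM (log2 fold change 4.73, SE 0.36, edgeR adjusted p = 1e-06). Tagln, which encodes the actin-binding protein transgelin, had 0.725, 0.129 and 0.506 and 13.9, 19.2, 18.3 and 29.6 CPM (log2 fold change 5.56, SE 0.47, edgeR adjusted p = 1.9e-06), and Cnn1, calponin, had no count in OPC and 9.2, 9.94, 11.4 and 15.9 CPM in OL. Ccn1, a matricellular protein, went from 10.6, 13.2 and 12.7 to 83.9, 81.2, 112 and 125 CPM (log2 fold change 3.04, SE 0.22, edgeR adjusted p = 6.3e-07), and its model was 1.49 times as long in OL. SRF-KO OL replicate 4 had the highest value of all 5 genes and no OL library overlapped an OPC library. Markers of endothelial, fibroblast and mural cells, some of which carry contractile genes, summed to 3.24 to 6.92 CPM in OPC and 11.9 to 17.8 CPM in OL. The endothelial marker Cldn5 was at 0 in every library. The mural markers Pdgfrb and Rgs5 had means of 0.0674 and 0.688 CPM in OPC and 2.10 and 1.98 in OL. Col1a1 of the same list had 0.414, 2.26 and 0 CPM in OPC and 0.0969, 0.181, 0.456 and 0.419 in OL. The part of such cells in the contractile values was not tested.

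Cytoskeletal actins changed less. Actg1, cytoplasmic gamma-actin, had 4042, 3269.7 and 3760.4 CPM in OPC and 4827, 5188, 4377 and 5813 in OL (log2 fold change 0.45, SE 0.17, edgeR adjusted p = 0.034), and Actb, cytoplasmic beta-actin, did not pass the test, with 3040.5, 2468 and 3022 and 3950.2, 4025, 2689 and 5329 CPM (log2 fold change 0.49, SE 0.23, edgeR adjusted p = 0.075). Tpm1, a tropomyosin, fell from 237, 267 and 262 to 75.1, 76.8, 80.3 and 106 CPM (log2 fold change -1.60, SE 0.17, edgeR adjusted p = 1.3e-05), and Itga5, the fibronectin receptor subunit, from 3.32, 2.97 and 2.43 to 0.678, 1.08, 0.684 and 1.05 CPM (log2 fold change -1.71, SE 0.37, edgeR adjusted p = 0.0019). Actc1, cardiac actin, had 5.8, 3.81 and 2.73 CPM in OPC and 0.387, 0.0903, 0 and 0.629 in OL (log2 fold change -3.89, SE 0.61, edgeR adjusted p = 0.0002). The Actb groups overlapped, and those of Actg1, Tpm1, Itga5 and Actc1 did not. With the like-length scaling 11 list members rose and 17 fell, with a median of -1.06, so the balance of the list depends on the scaling.

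Immediate-early genes and targets of ternary complex factors split into 11 rises and 13 falls of 29, with a median of -0.18, beside 37.6% and 28.9% of all genes. Egr1, a zinc finger factor induced by mitogens, had 146, 167 and 165 CPM in OPC and 11.6, 16.3, 18.5 and 14.9 in OL (log2 fold change -3.39, SE 0.19, edgeR adjusted p = 1.1e-07), with an OL model 1.21 times as long. Btg2, an antiproliferative gene, had 159.6, 211 and 160.4 and 32.8, 34.6, 31 and 28.9 CPM (log2 fold change -2.47, SE 0.17, edgeR adjusted p = 4.5e-07), and Ier3 had 28.4, 29 and 39 and 7.46, 5.6, 7.53 and 8.17 CPM (log2 fold change -2.18, SE 0.20, edgeR adjusted p = 4.5e-06). Dusp6, a feedback phosphatase of ERK, fell by 2.61 on the log2 scale. The OL libraries of Egr1, Btg2 and Ier3 were all below the OPC libraries.

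Among the AP-1 subunits, the intronless gene Jun fell from 138, 137 and 149 to 64.5, 62.4, 65.5 and 42.3 CPM (log2 fold change -1.26, SE 0.18, edgeR adjusted p = 0.00011), and the intronless gene Junb rose from 12.5, 10.5 and 11.4 to 22.7, 21.1, 27.4 and 29.6 CPM (log2 fold change 1.12, SE 0.19, edgeR adjusted p = 0.00033). Fos rose from 48.8, 52.2 and 45.8 to 66.6, 68.7, 70.3 and 88 CPM (log2 fold change 0.58, SE 0.16, edgeR adjusted p = 0.0086), and Jund did not pass the test (0.44). Rhob, an intronless gene of an actin-regulating GTPase that overlaps no other gene, rose from 25.2, 15.5 and 24.8 to 113, 90.6, 78.5 and 56.6 CPM (log2 fold change 1.97, SE 0.27, edgeR adjusted p = 7.4e-05), while the intronless gene Ier2 fell from 38.4, 44 and 39.4 to 13.9, 14.3, 16 and 22.4 CPM (log2 fold change -1.31, SE 0.19, edgeR adjusted p = 0.00014). With the length trend removed the list had 6 rises and 16 falls, and with the like-length scaling 1 and 20.

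Actin assembly and turnover genes rose in 17 of 43 and fell in 10, with a median of 0.05. Daam2, a formin known as a Wnt regulator in this lineage, had 0.207, 0.194 and 0.1011 CPM in OPC and 155, 151, 172 and 164 in OL (log2 fold change 9.76, SE 0.28, edgeR adjusted p = 1.5e-08). Fmnl2, another formin, had 27.5, 16.4 and 23.5 and 143, 137, 123 and 115 CPM (log2 fold change 2.53, SE 0.21, edgeR adjusted p = 1.9e-06), and Coro1c, a coronin that acts on branched actin, fell from 329, 335 and 363 to 87, 92.7, 93.8 and 66.7 CPM (log2 fold change -2.01, SE 0.17, edgeR adjusted p = 2.2e-06). Of the core subunits of the Arp2/3 complex, which nucleates branched filaments, Actr2 (-0.99), Actr3 (-0.97) and Arpc2 (-0.62) fell, and Arpc1a (0.97), Arpc1b (1.03) and Arpc5 (0.59) rose. Cfl1, the cofilin that severs filaments, was at -0.33 and did not pass the test. These shares are close to those of all genes, 37.6% up and 28.9% down, and with the like-length scaling the list had 2 rises and 36 falls.

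Targets of p53 were mostly lower in SRF-KO OL, with 24 of 32 down and 3 up and a median of -1.50. Of all genes 28.9% fell and 37.6% rose. Cdkn1a, the p21 inhibitor of the cell cycle, had 459.9, 616 and 471 CPM in OPC and 90.9, 80.5, 84.2 and 184 in OL (log2 fold change -2.23, SE 0.29, edgeR adjusted p = 5.5e-05). Eda2r, a death receptor gene, had 167, 199.8 and 155 and 18.6, 19.6, 14.1 and 10.5 CPM (log2 fold change -3.45, SE 0.23, edgeR adjusted p = 3.3e-07). Members known from cell division fell as well. Gtse1 went from 116, 129 and 124 to 10.1, 9.03, 9.35 and 4.61 CPM (log2 fold change -3.87, SE 0.23, edgeR adjusted p = 1.8e-07) and Psrc1, a spindle protein gene, from 90.4, 107 and 88.3 to 11, 8.58, 9.35 and 14.7 CPM (log2 fold change -3.14, SE 0.21, edgeR adjusted p = 3.1e-07). Gadd45a (2.29), Fas (2.09) and Pltp (1.05) rose. In controls 25 p53 targets fell, with a median of -1.53.

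Genes of the integrated stress response fell in 9 of 21 and rose in 7, beside 28.9% and 37.6% of all genes. The falls included genes of amino acid and one-carbon metabolism. Mthfd2, a mitochondrial folate enzyme, had 103, 126 and 104 CPM in OPC and 14.9, 16.5, 13.5 and 13 in OL (log2 fold change -2.93, SE 0.17, edgeR adjusted p = 1.4e-07), Shmt2 had 167, 172 and 159 and 48.9, 51, 47.5 and 50.7 CPM (log2 fold change -1.75, SE 0.14, edgeR adjusted p = 1.7e-06), and the amino acid carrier Slc7a5 had 47, 32.9 and 57.7 and 7.46, 9.12, 6.16 and 7.76 CPM (log2 fold change -2.57, SE 0.23, edgeR adjusted p = 2.6e-06). The transcription factors Atf4 (0.85), Ddit3 (1.56) and Cebpb (2.41) rose. With the like-length scaling no member rose and 17 fell.

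Interferon response genes rose in 9 of 21 and fell in 3, with a median of 0.37, and the share that rose was close to the 37.6% of all genes (28.9% fell). Tap1, the peptide transporter of antigen presentation, fell from 23.2, 34.3 and 27.3 to 7.26, 8.49, 5.48 and 7.13 CPM (log2 fold change -1.97, SE 0.21, edgeR adjusted p = 1.2e-05). Ifi27 rose from 4.14, 6.85 and 6.07 to 21.2, 19.1, 25.3 and 33.7 CPM (log2 fold change 2.10, SE 0.26, edgeR adjusted p = 4.1e-05). Mx2, an antiviral GTPase gene, had 0, 0.129 and 0 CPM in OPC and 2.42, 3.43, 2.97 and 1.68 in OL, a ratio of 48.1 (95% counting interval 12.9 to 404). With the like-length scaling 1 member rose and 12 fell.

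**Figure D3:**
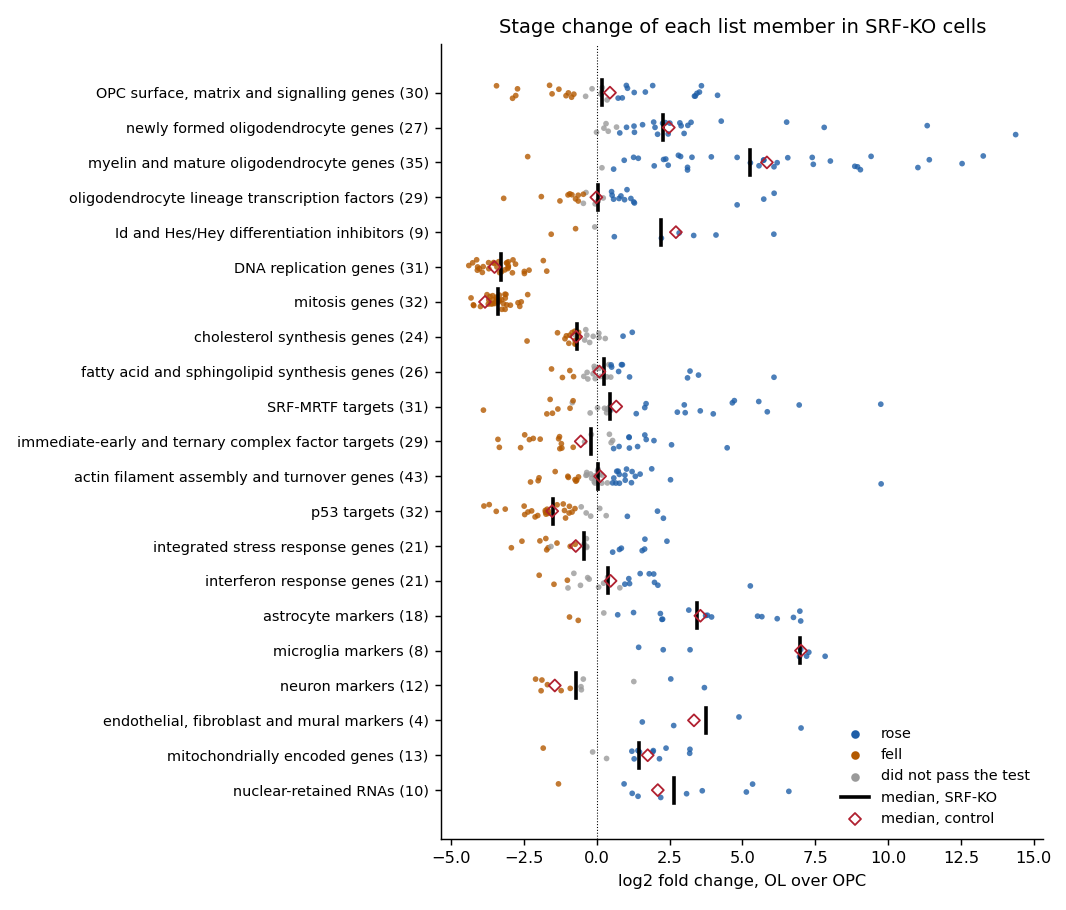
Log2 fold change, SRF-KO OL over SRF-KO OPC, for each tested member of the 21 gene lists (number in brackets); blue points rose, orange points fell and grey points did not pass the test, with the SRF-KO median as a black line and the control median as a red diamond. Fitted values of genes with no OPC count depend on the prior count. Replication and mitosis genes lie below 0, and myelin genes, except Anln, lie above 0.

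Markers of other cell types were examined in the same libraries. Astrocyte markers rose in 15 of 18 and fell in 2, beside 37.6% and 28.9% of all genes. Among the 18, 1 had no count in OPC and so passed the filter on low counts through the OL libraries alone. Gfap, the astrocyte filament, had 74.4, 85.2 and 74.6 CPM in SRF-KO OPC and 10005, 10161, 8256 and 5309.9 in SRF-KO OL (log2 fold change 6.75, SE 0.31, edgeR adjusted p = 3.7e-08), and the water channel Aqp4 had 26.2, 27.5 and 32.7 and 1981, 2181, 2034 and 2256 CPM (log2 fold change 6.20, SE 0.21, edgeR adjusted p = 1.6e-08). Serpina3n, a protease inhibitor of reactive glia, had 7.98, 9.63 and 8.9 and 931, 1109, 1162 and 1256 CPM (log2 fold change 6.97, SE 0.23, edgeR adjusted p = 1.6e-08). Aldh1l1, an astrocyte enzyme, went down from 54.2, 40.1 and 48.9 to 29.3, 28.5, 26 and 15.3 CPM (log2 fold change -0.93, SE 0.22, edgeR adjusted p = 0.0035). Of 15 microglia markers, 11 had no count in OPC, and the list summed to 34.1 to 38.5 CPM in OPC and 77.1 to 165 CPM in OL. C1qb, a complement gene of microglia, had no count in OPC and 1.55, 2.71, 1.83 and 2.1 CPM in OL, at least 23.9-fold higher. The filter on low counts passed 8 of the 15, of which 5 had no count in OPC and so passed through the OL libraries alone, and no count of rises is given for them.

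Neuron markers fell in 6 of 12 and rose in 2, and summed to 512 to 568 CPM in OPC and 349 to 392 CPM in OL. Of all genes 28.9% fell and 37.6% rose. Tubb3, a neuronal tubulin also found in immature glia, had 21.6, 29.4 and 22.5 CPM in OPC and 117, 136, 131 and 188 in OL (log2 fold change 2.54, SE 0.22, edgeR adjusted p = 2.5e-06). Mitochondrially encoded genes rose in 10 of 13 and fell in 1, mt-Co3, with 1868, 1848 and 1476 and 502, 396, 187 and 856 CPM (log2 fold change -1.83, SE 0.39, edgeR adjusted p = 0.0016). With the length trend removed, 2 mitochondrial genes rose and 6 fell. RNAs that stay in the nucleus rose in 9 of 10, beside 37.6% of all genes. Neat1, the scaffold of paraspeckles, had 2.49, 2 and 1.82 CPM in OPC and 266, 215, 207 and 127 in OL (log2 fold change 6.60, SE 0.33, edgeR adjusted p = 6e-08). The part of nuclear RNA in the stage changes was not tested.

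The largest changes of the longer class, within the same limits, were led by ribosomal protein genes among the falls and by genes without OPC counts among the rises. The falls were Srp54a, Rps27, Rpl9, Rps19, Rpl38, Rpl17, Syt13 and Rpl23a. Syt13, a synaptotagmin, went from 37.3, 34 and 41.3 to 0.775, 0.271, 0.684 and 0.21 CPM (log2 fold change -6.22, SE 0.31, edgeR adjusted p = 6e-08). Beside Enpp6, Mog and Mag, the rises were Myo3a, Il31ra, Cnmd, C3 and Ccdc3, and these last were all at 0 in the OPC libraries. C3, the central complement component, had 57.3, 73.2, 52.9 and 43.6 CPM in OL, at least 662-fold higher. Il31ra, a cytokine receptor subunit, had 498, 353, 159.7 and 194 CPM, at least 3514-fold higher. Of the 90 genes chosen by rule, 42 overlap another annotated gene. The protocol is not stated to mark the strand, so that reads of overlapping genes cannot be assigned with certainty.

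The same stage comparison in control cells shared no library with the one above but shared its difference in counting. Of 15027 genes tested there, 6390 (42.5%) were higher in control OL and 5580 (37.1%) were lower. Over 14721 genes tested in both genotypes, 5403 rose in SRF-KO cells and 5162 of these rose in controls, which is 95.5% of the SRF-KO rises and 82.8% of the 6237 control rises. Of 4340 falls in SRF-KO cells, 4181 fell in controls, which is 96.3% of the SRF-KO falls and 75.7% of the 5521 control falls. In the opposite direction were 1 of the rises and 3 of the falls. All 33 myelin genes that rose in SRF-KO cells were among the 34 that rose in controls, and the 22 newly formed genes were among 26. Of the 19 SRF-MRTF targets that rose in controls, 14 rose in SRF-KO cells, and 7 of the 9 that fell in controls fell. The control medians were 5.84 for myelin genes and 2.48 for newly formed genes, against 5.28 and 2.26 in SRF-KO cells.

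**Figure D4:**
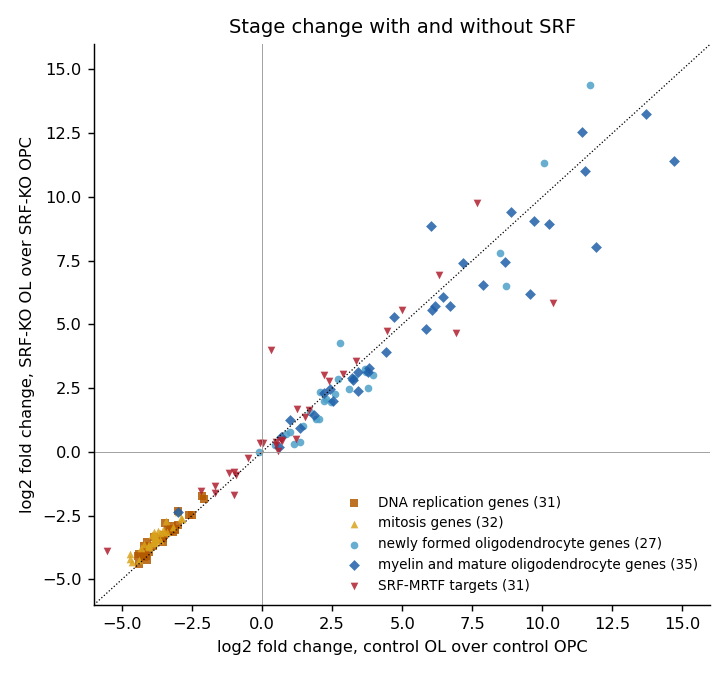
Log2 fold change, OL over OPC, in control cells (x axis) and SRF-KO cells (y axis) for members of 5 gene lists; the dotted line marks equal change. Fitted values of genes with no OPC count depend on the prior count. Srf, at 0.32 in controls and 4.00 in SRF-KO cells, lies apart from the line.

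A test of the difference itself was made over all 15 libraries, where a counting factor common to both genotypes cancels. Of 16135 genes, the log2 difference, SRF-KO minus control, was above 0 for 7 (0.0434%) and below 0 for 11 (0.0682%) at an adjusted p under 0.05, and 1493 (9.25%) had an unadjusted p under 0.05. Srf led, with a difference of 3.68 (SE 0.46, edgeR adjusted p = 0.0047). Mmp2, a matrix metalloprotease, fell less in SRF-KO cells. Its level was 16.4 ± 2.57 CPM in control OPC, 23.5 ± 1.21 in SRF-KO OPC, 1.79 ± 0.606 in control OL and 10.5 ± 2.53 in SRF-KO OL (SD; n = 4, 3, 4 and 4), a difference of 2.04 (SE 0.32, edgeR adjusted p = 0.013). Within each stage every SRF-KO library had more Mmp2 than every control library. Tacc2, a centrosomal protein gene that overlaps Fgfr2, had 132 ± 4.77, 127 ± 8.13, 2.77 ± 1.37 and 10.7 ± 2.14 CPM in the same order, a difference of 1.88 (SE 0.31, edgeR adjusted p = 0.02).

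Rsph3b, a radial spoke protein gene, rose less in SRF-KO cells, with 25.3 ± 3.46, 32.8 ± 2.62, 948 ± 378 and 191 ± 69.3 CPM and a difference of -2.68 (SE 0.39, edgeR adjusted p = 0.0081). Mphosph8, which binds methylated histone H3 in silenced chromatin, had 25.5 ± 6.67, 34.2 ± 5.62, 356 ± 98.2 and 109.7 ± 36.3 CPM and a difference of -2.11 (SE 0.35, edgeR adjusted p = 0.02). In both genes every SRF-KO OL library lay below every control OL library. Gm13237, a processed pseudogene, had a difference of 2.05 (SE 0.31, edgeR adjusted p = 0.011). Gm26899 and Spag6l had no count in the 4 control OPC libraries, so that the size of their difference depends on the prior count. Serpina3n of the astrocyte list, named after its values were seen, was also among the 18, with a difference of -1.52 (SE 0.26, edgeR adjusted p = 0.02). Without SRF-KO OPC replicate 2 the edgeR adjusted p was 0.080 for Mmp2, 0.081 for Gm13237, 0.094 for Tacc2, 0.082 for Spag6l and 0.098 for Mphosph8. The calls of Tacc2, Spag6l and Mphosph8 were also lost without control OPC replicate 2, control OPC replicate 4 or control OL replicate 1, and that of Mphosph8 without control OL replicate 3, at edgeR adjusted p from 0.050 to 0.061.

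No myelin, newly formed, replication or mitosis gene passed the test of the difference by edgeR. Of all genes only 0.0434% passed above 0 and 0.0682% below. At an unadjusted p under 0.05 were 14 of 35 myelin genes, 11 of 27 newly formed genes, 6 of 31 replication genes and 13 of 32 mitosis genes. Of all genes 9.25% had such a p. The estimate was positive, that is a smaller fall in SRF-KO cells, for 32 of 32 mitosis and 28 of 31 replication genes, and negative, a smaller rise, for 26 of 35 myelin genes and 21 of 27 newly formed genes. Over all genes 50.5% of the estimates were positive. Members of a list share libraries and are not independent.

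The count of genes that differed moved with the library left out. It fell to 2 above 0 and 2 below without SRF-KO OPC replicate 2, and it was highest without SRF-KO OL replicate 4. Without SRF-KO OL replicate 4, which stands apart on the second component, the difference passed the test above 0 for 70 genes and below 0 for 64. Among them were the mitosis genes Ccna2, Ccnb1, Kif23 and Anln, with positive differences, and the newly formed genes Bcas1, Sirt2, Tcf7l2 and Pik3r3, with negative ones. The astrocyte markers Gfap, Aqp4 and Serpina3n also had negative differences there. Apart from Anln no myelin gene, and apart from Srf no SRF-MRTF target, passed in that fit. Actin assembly genes numbered 0 of 43. DESeq2 on all libraries called 67 differences above 0 and 99 below.

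**Figure D5:**
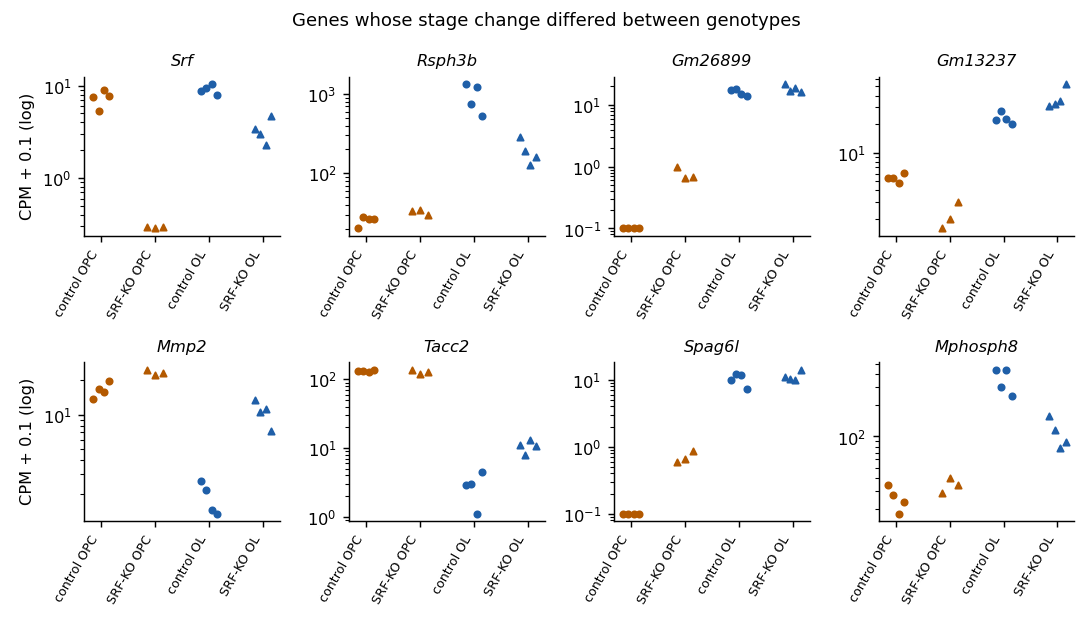
CPM plus 0.1 (log axes) in each of the 15 libraries for the 8 genes with the smallest p among those with an average log2 CPM of at least 1, in the test of the difference between stage changes; orange marks OPC, blue marks OL, circles are controls and triangles SRF-KO. Srf was lowest in SRF-KO OPC, and Mmp2 was lower in control OL than in SRF-KO OL.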

How the data were processed

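RNA from primary mouse cultures was made into Smart-seq2 libraries and read as single reads of 63 bases, per the labels' protocols. The authors' deposited files give an expected count, a length, an effective length, TPM and FPKM per gene. Per the submitters' processing notes they were made with bcl2fastq, STAR and RSEM, with the builds GRCm38 and Rnor_6.0 named; versions are not given in the sources used here. TPM and FPKM as deposited by the authors were not used, since they carry the stage-specific lengths. Symbols, introns and overlaps came from GENCODE M21 (GRCm38), and 45143 of 45706 gene IDs had a symbol.

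Expected counts were rounded to whole numbers. Genes were filtered with filterByExpr, scaled by TMM and tested with edgeR 4.0.16 (quasi-likelihood F-test, two-sided, Benjamini-Hochberg over all genes tested, in R 4.3.3 with limma 3.58.1). DESeq2 1.42.0 was an alternative. The SRF-KO stage fit used 7 libraries, the control fit 8 and the difference of stage changes all 15. CPM are counts scaled to TMM library sizes. Intervals and the floor of 3 counts over a group cover counting error only. The scripts were tested on simulated counts with known changes. Alternatives were other scalings, no filter on low counts, a log2 threshold of 1 (glmTreat), a length-ratio trend removed, other length limits, a replicate block and each library left out. The class of coding genes without introns, and the scaling from it, were chosen after seeing the data.

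Members and the 21 gene lists (533 entries) were chosen with earlier results of these data known. Genes named by rule were Srf, the 8 largest rises and falls of each class (adjusted p under 0.05, average log2 CPM at least 3, groups without overlap), up to 3 members with the smallest p of each stage, SRF or stress list and 1 of each other list, and up to 8 genes of the difference test with an average log2 CPM of at least 1. Other list members and genes without introns are named after their values were seen.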

Additional observations from a re-analysis of the deposited data

Results flagged for a closer look

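In groups of 4 libraries, 1 library stood apart from the other 3 in 5 of the 90 genes chosen by rule, and in 3 of these it was SRF-KO OL replicate 4. Chance alone sets a library apart in about 1 of 20 groups. Mog had 156 CPM in SRF-KO OL replicate 4 and 122 to 127 in the others, Id3 had 1099 CPM against 596 to 650, and Aldoart1 had 40.7 CPM against 27.3 to 29.0. The same library lay at -71.7 on the second principal component, with the others at 22.3 to 28.2. Sowahc had 0.0969 CPM in SRF-KO OL replicate 1 and Srp54a had 1.17 CPM in SRF-KO OL replicate 2, each with 0 in the other 3 libraries.

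The stage change differed between SRF-KO and control cells, by a test of the difference, in 8 genes named by rule. The log2 difference, SRF-KO minus control, was 3.68 for Srf, 2.05 for the processed pseudogene Gm13237, 2.04 for Mmp2 and 1.88 for Tacc2. It was -2.68 for Rsph3b, -2.11 for Mphosph8, -5.66 for Gm26899 and -5.61 for Spag6l, and the sizes of the last 2 depend on the prior count because all control OPC libraries were at 0. The causes were not tested.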

How the results depend on the processing

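With TMM factors from like-length genes the median of all genes shifted by -1.52 on the log2 scale, and 2755 genes rose and 10027 fell in SRF-KO cells (longer class 1761 and 9434, like-length falls 593, coding genes without introns 54 and 195). Library totals shifted it by -0.13 and TMM from coding genes without introns by -0.26. Tested against a log2 change of 1, 3661 genes rose and 1621 fell (longer class 2573 and 1496, like-length falls 125, coding genes without introns 70 and 31), and in controls 3994 and 2174. Like-length falls numbered 389 without the filter, 681 with the length trend removed and 429 with a length limit of 1.5; with the trend removed coding genes without introns split into 42 and 223. Leaving out 1 library gave 5006 to 6033 rises and 3940 to 5016 falls over all genes. Hsd17b7 turned to -0.32 with the like-length scaling. Of 1619 values of genes named by rule across these alternatives, 1613 kept their direction and their side of the threshold, 5 lost the call and 1 turned. Causes were not tested.

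The difference of stage changes, 7 genes above 0 and 11 below (SRF-KO minus control), moved most. DESeq2 gave 67 and 99, no filter 23 and 65, and library totals 11 above 0. Leaving out 1 library gave 2 to 70 above and 2 to 64 below. The highest came without SRF-KO OL replicate 4 (70 and 64), followed by control OL replicate 4 (11 and 31) and SRF-KO OL replicate 1 (22 below). The lowest came without SRF-KO OPC replicate 2 (2 and 2), control OPC replicate 2 (4 and 2), control OPC replicate 4 (4 and 3) and control OL replicate 1 (4 and 2); without control OL replicate 3, 4 were below, and without SRF-KO OPC replicate 1 or 3, 7 were below. With the replicate block 0 and 0 passed. Replicate numbers are only numbers: same-numbered libraries correlated by 0.0365, -0.0653 and -0.00623 across genes in their deviations from the group means, so no pairing was assumed. The block left the counts of the stage change itself within 1.5 times.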
